A study of Homo sapiens with 9 samples.

Results

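The genes described here are the enzymes of glycolysis, the transporters and regulators that feed or drain the pathway, and the genes that cells switch on when oxygen is short. They were taken by name, as 40 of the 16630 genes in the deposited table, and 38 of them stood above the filter on low values (a mean of at least 0.5 FPKM over all libraries) among 13273 genes tested. ALDOC, an aldolase, and CA12, a carbonic anhydrase, lay below it. The set comprised 15 glycolytic enzymes, 7 genes of lactate handling, transport and flux control, 5 genes of oxygen sensing and HIF subunits, and 13 HIF-induced effectors.

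RNA came from H1650, an established human line of lung cancer cells, 3 days after transfection with siRNA at 20 nM. The siMENA11a libraries came from cells given a mix of siRNAs matching exon 11a of ENAH, which encodes the actin regulator hMENA. The siMENA libraries came from cells given a pool against every ENAH transcript. The control libraries came from cells given a pool that targets no gene and is of another product line than the siMENA pool. Each group had 3 libraries, described as biological replicates of this 1 cell line, and all 3 groups went through the same transfection.

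Glycolysis splits glucose into pyruvate in the cytosol, and lactate dehydrogenase turns pyruvate into lactate when mitochondria do not take it up. HIF-1 and HIF-2 are transcription factors made of an oxygen-labile alpha subunit (HIF1A or EPAS1) and the stable partner ARNT. In oxygen, the prolyl hydroxylases of the EGLN family mark the alpha subunit for destruction by VHL, and in hypoxia the surviving factor binds short promoter and enhancer motifs of glycolytic genes, of VEGFA and of many others. These cells were not described as hypoxic, so the levels below are those of cultured cells as collected.

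ENAH, the targeted gene, stood at 9.98, 11.0 and 10.3 FPKM in siMENA11a libraries, at 4.43, 5.79 and 5.57 FPKM in siMENA libraries and at 26.1, 30.04 and 26.1 FPKM in control libraries. The 3 groups did not overlap. FPKM sums ran from 558754 to 592930 per library, and depth, estimated from the steps between low values, from 1.14 to 1.6 times that of control replicate 1 in the other libraries. All 8 epithelial markers looked up were in the table, with sums of 4349 to 4874 FPKM in siMENA11a libraries, 5077 to 5335 FPKM in siMENA libraries and 5157 to 5512 FPKM in control libraries. Of alveolar and endothelial markers, 3 of 5 and 3 of 4 were in the table, and none reached a mean of 0.5 FPKM. Of 6 fibroblast markers, 3 were in the table, with sums of 0.533 to 2.48 FPKM in siMENA11a, 0.775 to 3.79 FPKM in siMENA and 0.622 to 2.55 FPKM in control libraries. Leukocyte markers (3 of 6 in the table, CD68 and CD14 among them) summed to 15.1 to 20.2 FPKM in siMENA11a, 13.7 to 16.7 FPKM in siMENA and 14.4 to 19.3 FPKM in control libraries. Fewer cells expressing a gene and less RNA per cell cannot be told apart in these bulk samples.

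The 2 genes that fell most with siMENA stood lower there than in both other groups. PGAM1, the phosphoglycerate mutase of glycolysis, and BNIP3L, a mitophagy receptor induced by HIF, fell with siMENA against control and were higher in siMENA11a than in siMENA. ERO1L (ERO1A), the oxidase that helps proteins fold in the endoplasmic reticulum, fell with siMENA and rose with siMENA11a. NDRG1, a stress-responsive gene strongly induced by hypoxia, and EGLN3, an oxygen sensor that HIF itself induces, rose with siMENA11a. Other core enzymes, GAPDH, PGK1, TPI1, ALDOA and PKM, passed in none of the 3 comparisons.

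**Figure D1:**
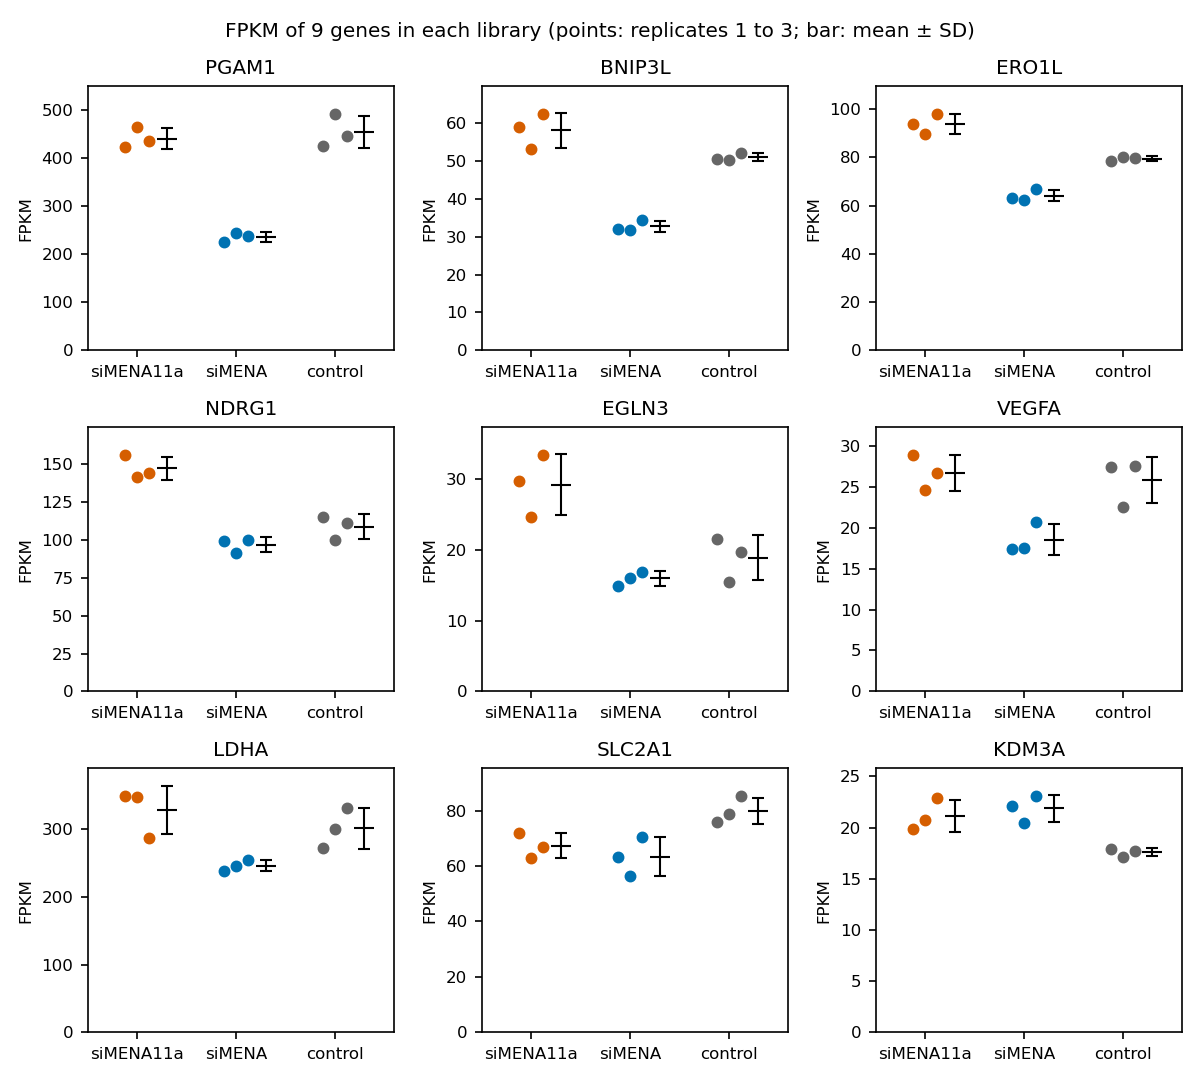
FPKM in each of the 9 libraries for the genes on which the results turn, 1 panel a gene, with siMENA11a, siMENA and control from left to right; points are libraries and bars the mean ± SD. PGAM1 and BNIP3L stand lowest in the 3 siMENA libraries, whereas NDRG1 and EGLN3 stand highest in the 3 siMENA11a libraries.

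Levels of the glycolytic enzymes spanned a wide range on the FPKM scale, which is per length of transcript. GAPDH, the dehydrogenase at the middle of the pathway, was the most abundant, with 5787, 4847 and 5563 FPKM in siMENA11a, 5884, 5317 and 5512 FPKM in siMENA and 5926, 5141 and 5849 FPKM in control libraries. ENO1, the main enolase, came next at a control mean of 1358 ± 10.4 FPKM, followed by PKM (listed as PKM2), the pyruvate kinase gene, at 833 ± 34.3 FPKM and ALDOA, the main aldolase, at 823 ± 47.4 FPKM (SD, n = 3). The ranges of PKM and ALDOA overlapped, so their order was not resolved. At the low end stood ENO2, the neuronal enolase, at 2.91 ± 0.06 FPKM, and ALDOC at 0.479 ± 0.141 FPKM in control libraries (SD, n = 3). The 15 enzymes together took 1.72% to 1.81% of all FPKM in siMENA11a, 1.68% to 1.73% in siMENA and 1.68% to 1.90% in control libraries. These 3 ranges overlapped.

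**Figure D2:**
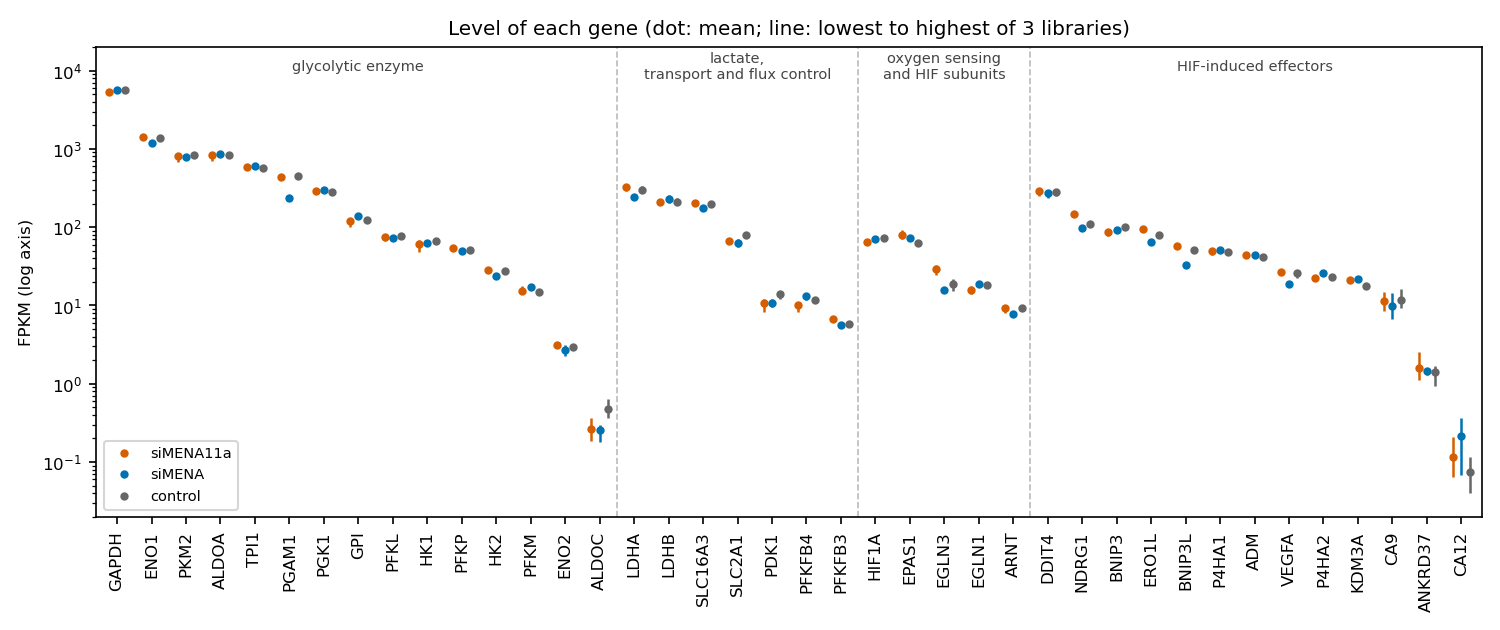
Mean FPKM of each gene (log axis) in siMENA11a, siMENA and control libraries, ordered by level within each role, with a line from the lowest to the highest of 3 libraries. GAPDH lies at the top with a control mean of 5638 FPKM and CA12 at the bottom with 0.0743 FPKM.

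Among the enzymes, PGAM1 showed the largest difference in 2 of the 3 comparisons. It stood at 423, 464 and 437 FPKM in siMENA11a, at 226, 245 and 238 FPKM in siMENA and at 427, 492 and 446 FPKM in control libraries. Every siMENA library lay below every library of the other groups, while siMENA11a and control overlapped. All log2 differences are of log2(FPKM + 1), so that changes of weakly expressed genes are understated. PGAM1 fell by 0.94 with siMENA against control (SE 0.07, n = 3 each, limma fit over all 13273 genes with Benjamini-Hochberg adjusted p = 5.39e-05). It was higher by 0.90 in siMENA11a than in siMENA (SE 0.07, adjusted p = 2.65e-05). The difference of -0.04 between siMENA11a and control did not pass (adjusted p = 0.727). Of the 9 PGAM1 values, 7 had lost their decimal point in the deposited table and were restored. HK2, the inducible hexokinase that commits glucose to the pathway, stood at 28.6, 27.8 and 28.7 FPKM in siMENA11a, 23.0, 24.5 and 24.7 FPKM in siMENA and 27.3, 27.5 and 26.8 FPKM in control libraries. All 3 siMENA libraries lay below the rest. HK2 fell by 0.17 with siMENA (SE 0.05, adjusted p = 0.0348) and was higher by 0.23 in siMENA11a than in siMENA (SE 0.05, adjusted p = 0.0049). The call against control was lost without siMENA replicate 1 or 2, siMENA11a replicate 1, or any control replicate, with adjusted p of 0.0542 to 0.128.

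ENO1 reached 1416, 1403 and 1463 FPKM in siMENA11a, 1231, 1221 and 1156 FPKM in siMENA and 1349, 1369 and 1355 FPKM in control libraries. These 3 groups did not overlap, with siMENA11a highest and siMENA lowest. The difference of 0.25 between siMENA11a and siMENA passed (SE 0.08, adjusted p = 0.0293). The -0.18 between siMENA and control did not (adjusted p = 0.139), except under quantile normalization and without the variance trend. The call between the siRNA groups was lost without any siMENA replicate, siMENA11a replicate 1 or 3, or control replicate 3 (adjusted p 0.0528 to 0.0897). PFKP, the platelet-type phosphofructokinase, was higher by 0.14 in siMENA11a than in siMENA (SE 0.05, adjusted p = 0.0491), and this call was lost when any of the 9 libraries was left out (adjusted p 0.0504 to 0.168). PFKP averaged 54.1 FPKM in siMENA11a, 48.9 FPKM in siMENA and 51.8 FPKM in control libraries. PGK1, the kinase that makes the first ATP of the pathway, stood at 299, 275 and 301 FPKM in siMENA11a, 304, 305 and 274 FPKM in siMENA and 280, 291 and 285 FPKM in control libraries. These ranges overlapped, and the log2 differences were 0.03 for siMENA11a against control, 0.04 for siMENA against control and -0.01 for siMENA11a against siMENA (adjusted p = 0.776, 0.674 and 0.9). For GAPDH the log2 differences were -0.06, -0.02 and -0.05 in that order (adjusted p = 0.8, 0.952 and 0.825). The other 8 enzymes tested (HK1, GPI, PFKL, PFKM, ALDOA, TPI1, ENO2 and PKM) passed in no comparison, and their log2 differences lay between -0.22 and 0.20. PFKM, the muscle-type phosphofructokinase, passed in both comparisons that involve siMENA once siMENA11a replicate 2 was left out (adjusted p 0.02 and 0.0119). In siMENA11a replicate 3, HK1, GPI, ALDOA and PKM were lower than in every other library, at 48.1, 102, 702 and 688 FPKM. Pseudogenes closely resemble GAPDH, ENO1, PGAM1, LDHA, TPI1, ALDOA and PKM, so a share of their fragments may have been assigned elsewhere by the authors' counting.

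LDHA, the subunit that favours lactate formation, stood at 348, 348 and 287 FPKM in siMENA11a, 238, 246 and 254 FPKM in siMENA and 272, 299 and 331 FPKM in control libraries. The siMENA libraries lay below all others, and siMENA11a overlapped control through its replicate 3. LDHA was higher by 0.41 in siMENA11a than in siMENA (SE 0.09, adjusted p = 0.00768). The difference of -0.29 between siMENA and control missed the threshold (adjusted p = 0.0604). That difference passed under median-ratio scaling, with only the 6 libraries compared, and without siMENA11a replicate 3 or control replicate 1 (adjusted p 0.0275 to 0.0482). SLC16A3 (MCT4), which exports lactate, averaged 205 FPKM in siMENA11a, 176 FPKM in siMENA and 195 FPKM in control libraries, and was higher by 0.22 in siMENA11a than in siMENA (SE 0.05, adjusted p = 0.0068). All its siMENA libraries lay below all control libraries, but the log2 difference of -0.15 missed the threshold (adjusted p = 0.063). Under median-ratio scaling SLC16A3 passed there (adjusted p = 0.0331).

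SLC2A1 (GLUT1), the widespread glucose transporter, stood at 72.1, 63.0 and 66.8 FPKM in siMENA11a, 63.3, 56.3 and 70.5 FPKM in siMENA and 75.8, 78.8 and 85.1 FPKM in control libraries. Both siRNA groups lay below control in every library and overlapped each other. SLC2A1 fell by 0.33 with siMENA (SE 0.09, adjusted p = 0.0232), a call lost without siMENA replicate 1 or 2 or control replicate 2 or 3 (adjusted p 0.0509 to 0.0878). The difference of -0.25 between siMENA11a and control did not pass (adjusted p = 0.0708) but did without siMENA replicate 2 or 3 (adjusted p 0.0462 to 0.0482). The 0.09 between siMENA11a and siMENA did not pass either (adjusted p = 0.445). PFKFB4, one of the enzymes that make the phosphofructokinase activator fructose 2,6-bisphosphate, stood at 11.0, 8.27 and 11.0 FPKM in siMENA11a, 13.6, 11.9 and 13.6 FPKM in siMENA and 12.8, 10.9 and 11.8 FPKM in control libraries. It was lower by 0.35 in siMENA11a than in siMENA (log2 -0.35, SE 0.11, adjusted p = 0.0293), with siMENA11a below siMENA in every library, and the call was lost without siMENA11a replicate 2, siMENA replicate 1 or siMENA replicate 3 (adjusted p 0.065 to 0.0929) and under median-ratio scaling or quantile normalization. PDK1, the kinase that shuts pyruvate dehydrogenase, averaged 10.6 FPKM in siMENA11a, 10.7 FPKM in siMENA and 13.8 FPKM in control libraries. The log2 difference of PDK1 was -0.36 between siMENA11a and control, which did not pass (adjusted p = 0.0932). Its log2 difference of -0.34 between siMENA and control did not pass either (adjusted p = 0.108), but passed when replicates were blocked by number (adjusted p = 0.015) and without siMENA11a replicate 2 (adjusted p = 0.0403). LDHB, the other lactate dehydrogenase subunit, and PFKFB3, a relative of PFKFB4, passed in no comparison. PFKFB3 was higher by 0.21 in siMENA11a than in siMENA, which missed the threshold (adjusted p = 0.0522). It passed with a filter of 2 FPKM, under median-ratio scaling or quantile normalization, without the variance trend and without control replicate 1 (adjusted p 0.0187 to 0.0467).

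The oxygen sensors EGLN3 and EGLN1 each passed in at least 1 comparison, and the HIF subunits HIF1A, EPAS1 and ARNT passed in none. EGLN3 stood at 29.6, 24.6 and 33.3 FPKM in siMENA11a, 14.9, 16.0 and 16.9 FPKM in siMENA and 21.5, 15.4 and 19.6 FPKM in control libraries. Every siMENA11a library lay above every other library, while siMENA and control overlapped. EGLN3 rose by a log2 difference of 0.61 with siMENA11a against control (SE 0.13, adjusted p = 0.0102) and of 0.83 against siMENA (SE 0.13, adjusted p = 0.00092). EGLN1, the main oxygen sensor of most cells, stood at 15.0, 14.0 and 17.6 FPKM in siMENA11a, 18.8, 19.1 and 18.8 FPKM in siMENA and 18.0, 19.0 and 17.4 FPKM in control libraries. It was lower in siMENA11a than in siMENA (log2 -0.27, SE 0.08, adjusted p = 0.0209), a call lost when replicate 1 or 2 of either group was left out (adjusted p 0.0552 to 0.0679). Against control its difference of -0.21 did not pass (adjusted p = 0.0797) but did without siMENA11a replicate 3 (adjusted p = 0.0121).

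HIF1A, the alpha subunit of HIF-1, stood at 65.0, 64.1 and 66.7 FPKM in siMENA11a, 71.0, 77.5 and 65.7 FPKM in siMENA and 70.3, 79.2 and 70.5 FPKM in control libraries. The siMENA11a libraries lay below every control library, but the log2 difference of -0.16 did not pass (adjusted p = 0.129), and neither did the -0.04 between siMENA and control (adjusted p = 0.731). EPAS1, which encodes the alpha subunit of HIF-2, stood at 73.0, 91.8 and 70.8 FPKM in siMENA11a, 66.8, 75.2 and 77.4 FPKM in siMENA and 57.8, 67.5 and 63.4 FPKM in control libraries. All siMENA11a libraries exceeded all control libraries, with a log2 difference of 0.31 that missed the threshold (adjusted p = 0.06) and passed under median-ratio scaling, under quantile normalization and without siMENA11a replicate 3 (adjusted p 0.0441 to 0.0452). The difference of 0.21 between siMENA and control did not pass (adjusted p = 0.173). ARNT, their partner, stood at 10.3, 9.72 and 8.13 FPKM in siMENA11a, 7.68, 7.77 and 8.18 FPKM in siMENA and 9.12, 9.63 and 9.13 FPKM in control libraries. The siMENA libraries lay below all control libraries, and the log2 difference of -0.21 missed the threshold (adjusted p = 0.0916), passing with quantile normalization, with only the 6 libraries compared and without siMENA11a replicate 3 (adjusted p = 0.0337). The 0.22 between siMENA11a and siMENA also missed it (adjusted p = 0.0554). That difference passed with a filter of 2 FPKM, under both other scalings and without siMENA11a replicate 3 (adjusted p 0.00775 to 0.0492). HIF protein is regulated mainly after translation, so transcript levels of these 3 genes do not report HIF activity.

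Among the HIF-induced effectors, BNIP3L stood at 58.9, 53.1 and 62.2 FPKM in siMENA11a, 31.9, 31.7 and 34.4 FPKM in siMENA and 50.6, 50.2 and 52.1 FPKM in control libraries. The 3 groups did not overlap. BNIP3L fell by 0.63 with siMENA (SE 0.06, adjusted p = 0.000249) and was higher by 0.81 in siMENA11a than in siMENA (SE 0.06, adjusted p = 2.55e-05). The log2 difference of 0.18 between siMENA11a and control missed the threshold (adjusted p = 0.072) and passed without siMENA11a replicate 2 (adjusted p = 0.0189) and under quantile normalization. BNIP3, the related mitophagy receptor, stood at 90.7, 77.1 and 89.5 FPKM in siMENA11a, 92.6, 91.7 and 87.9 FPKM in siMENA and 99.2, 99.5 and 104 FPKM in control libraries. Both siRNA groups lay below control in every library. BNIP3 fell by 0.23 with siMENA11a (SE 0.07, adjusted p = 0.0331), a call lost without siMENA11a replicate 2 or any control replicate (adjusted p 0.0591 to 0.109) and under quantile normalization. The difference of -0.15 between siMENA and control did not pass (adjusted p = 0.139) but did without siMENA11a replicate 2 (adjusted p = 0.0443).

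ERO1L stood at 93.8, 89.7 and 97.8 FPKM in siMENA11a, 63.3, 62.2 and 66.7 FPKM in siMENA and 78.4, 80.1 and 79.9 FPKM in control libraries. The 3 groups were separate, with control between the siRNA groups. ERO1L rose by a log2 difference of 0.24 with siMENA11a (SE 0.05, adjusted p = 0.0113), fell by 0.31 with siMENA (SE 0.05, adjusted p = 0.0035) and differed by 0.54 between siMENA11a and siMENA (SE 0.05, adjusted p = 5.63e-05). NDRG1 stood at 156, 142 and 144 FPKM in siMENA11a, 99.5, 91.1 and 100.1 FPKM in siMENA and 115, 99.7 and 111 FPKM in control libraries. The siMENA11a libraries lay above all others, and siMENA overlapped control. NDRG1 rose by a log2 difference of 0.43 with siMENA11a against control (SE 0.07, adjusted p = 0.00283) and of 0.60 against siMENA (SE 0.07, adjusted p = 0.000187). Between siMENA and control its difference of -0.16 did not pass (adjusted p = 0.13), but passed in the fit blocked by replicate number (adjusted p = 0.0453).

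VEGFA, the growth factor for blood vessels, stood at 28.8, 24.5 and 26.6 FPKM in siMENA11a, 17.4, 17.5 and 20.7 FPKM in siMENA and 27.4, 22.5 and 27.5 FPKM in control libraries. All siMENA libraries lay below all others, and siMENA11a overlapped control. VEGFA fell by 0.46 with siMENA (SE 0.10, adjusted p = 0.0109) and was higher by 0.50 in siMENA11a than in siMENA (SE 0.10, adjusted p = 0.00308). The log2 difference of 0.05 between siMENA11a and control did not pass (adjusted p = 0.772). KDM3A, a histone demethylase induced by HIF, rose with both siRNAs. It stood at 19.8, 20.8 and 22.9 FPKM in siMENA11a, 22.1, 20.5 and 23.1 FPKM in siMENA and 17.9, 17.1 and 17.7 FPKM in control libraries. Both siRNA groups lay above control. The log2 difference was 0.25 with siMENA11a (SE 0.07, adjusted p = 0.0249) and 0.30 with siMENA (SE 0.07, adjusted p = 0.0128). The siMENA11a call was lost without siMENA11a replicate 3 or any control replicate (adjusted p 0.0518 to 0.0773). CA9, the carbonic anhydrase widely used as a hypoxia marker, stood at 11.1, 14.7 and 8.43 FPKM in siMENA11a, 6.68, 14.4 and 8.26 FPKM in siMENA and 10.0, 16.4 and 9.27 FPKM in control libraries. Replicate 2 was highest in all 3 groups, the groups overlapped, and no comparison passed (adjusted p = 0.93 for siMENA11a against control, 0.526 for siMENA against control and 0.548 for siMENA11a against siMENA). ADM, ANKRD37, P4HA1, P4HA2 and DDIT4 passed in no comparison.

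**Figure D3:**
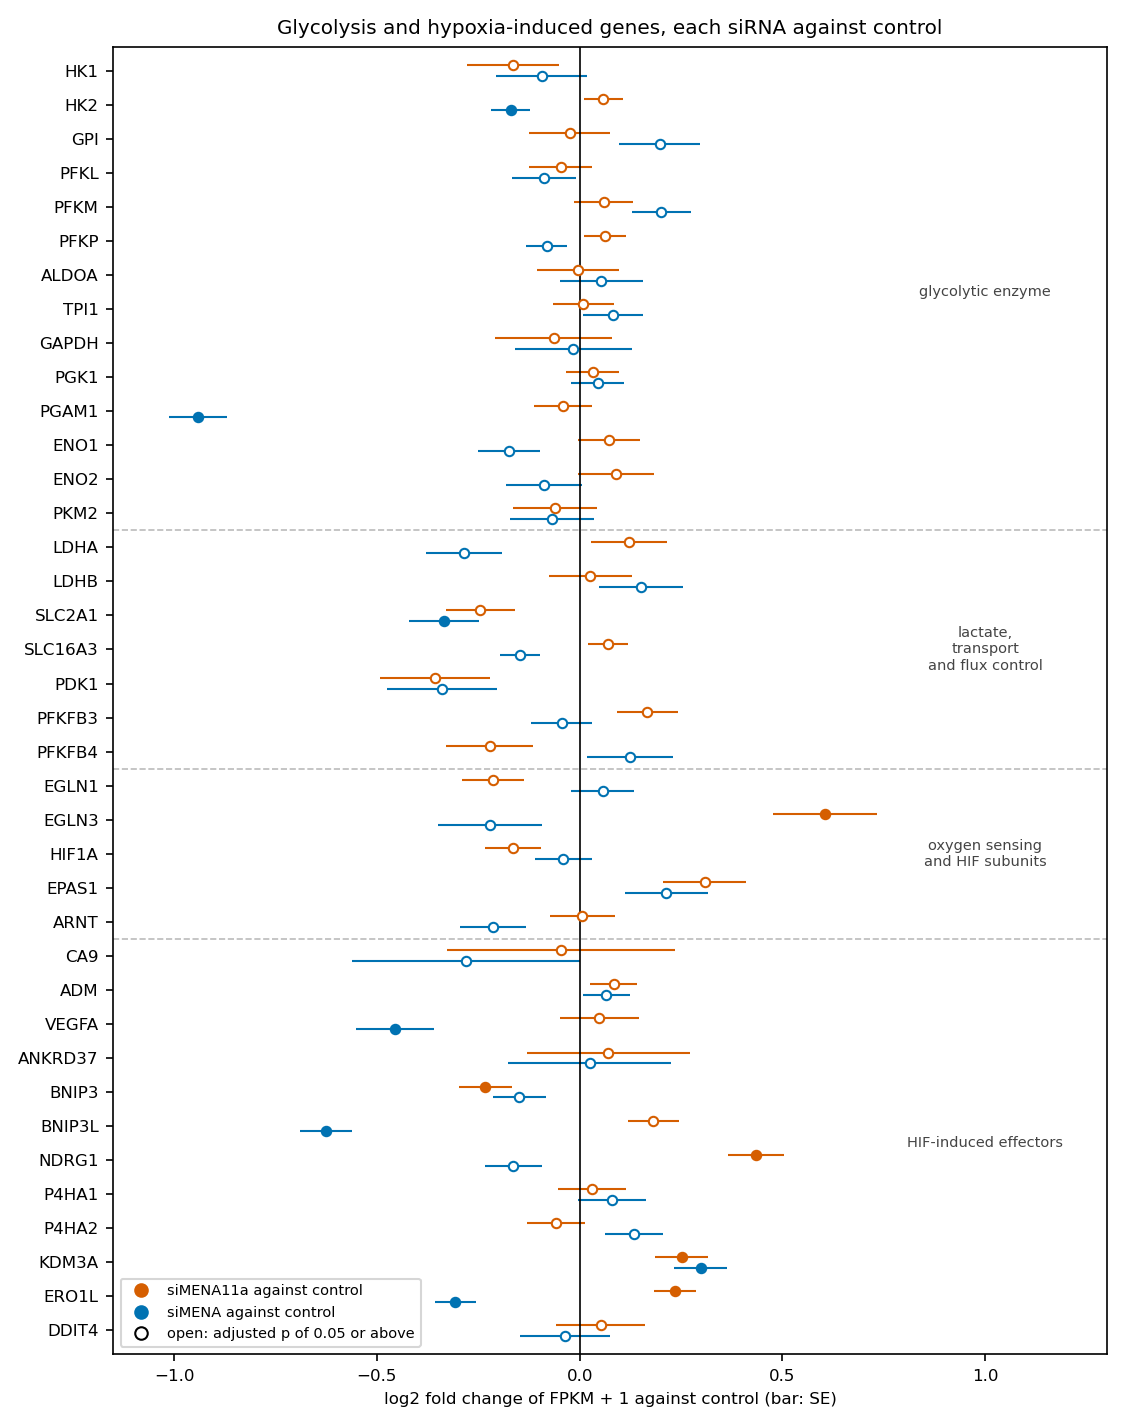
Log2 differences of the 38 tested genes on the log2(FPKM + 1) scale for siMENA11a against control and siMENA against control, with bars of 1 SE and filled points where the limma adjusted p was under 0.05. PGAM1 lies farthest below 0 for siMENA against control, at -0.94, and EGLN3 farthest above 0 for siMENA11a against control, at 0.61.

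Counted together, 5 of the 38 tested genes passed for siMENA11a against control, 4 higher and 1 lower. That is 13.2%, beside 19.5% of all genes tested, of which 8.16% were higher and 11.3% lower. For siMENA against control 7 of 38 passed, 1 higher and 6 lower, which is 18.4% beside 18.6% of all genes (10.3% higher and 8.24% lower). For siMENA11a against siMENA 13 of 38 passed, 11 higher and 2 lower, which is 34.2% beside 36.6% of all genes (14.4% higher and 22.2% lower). The share of the set that passed was near or below that of all genes in each comparison. Its median log2 differences were 0.03, -0.07 and 0.04 in that order, beside -0.01, 0.04 and -0.05 over all genes. The comparisons share libraries, so their counts are not independent of each other. By role, the HIF-induced effectors had 4 of 12 passing in each comparison, while the glycolytic enzymes had 0 of 14, 2 of 14 and 4 of 14. Over all genes, the lower calls made up 58.1%, 44.4% and 60.6% of the calls, against 53.3%, 56.2% and 50.1% under median-ratio scaling and 50.9%, 52% and 50.9% under quantile normalization.

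The wider pathway was read from 6 further lists of genes, and no list was tested as a whole. Of all genes tested, 8.16% were higher and 11.3% lower with siMENA11a against control, and 10.3% and 8.24% with siMENA against control. For siMENA11a against siMENA the shares were 14.4% and 22.2%. Of 34 other HIF-induced genes tested, 5 were higher and 1 lower with siMENA11a against control, 4 higher and 5 lower with siMENA against control, and 10 higher and 5 lower in siMENA11a than in siMENA. That is 17.65%, 26.47% and 44.12% passing, beside 19.5%, 18.6% and 36.6% of all genes. ANGPTL4, an inhibitor of lipoprotein lipase, rose with both siRNAs, averaging 47.4 ± 2.28 FPKM in siMENA11a, 34.1 ± 1.79 FPKM in siMENA and 22.3 ± 1.40 FPKM in control libraries (SD, n = 3). HIGD1A, a mitochondrial protein induced by hypoxia, averaged 80.1 ± 2.50 FPKM in siMENA11a and 41.6 ± 0.91 FPKM in siMENA libraries (log2 0.93, SE 0.05). PPP1R3C, which directs phosphatase to glycogen, fell by 0.71 with siMENA (SE 0.07), and HMOX1, a haem oxygenase, rose by a log2 difference of 0.68 (SE 0.10). LOX, which cross-links collagen, fell by 0.65 with siMENA11a (SE 0.10).

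Of 14 other genes of oxygen sensing and HIF partners, none was higher and 2 were lower with siMENA11a, 5 were higher and none lower with siMENA, and none was higher and 7 were lower in siMENA11a than in siMENA. That is 14.29%, 35.71% and 50% passing, beside 19.5%, 18.6% and 36.6% of all genes. VHL, which marks the hydroxylated HIF alpha subunit for destruction, averaged 14.4 ± 1.02 FPKM in siMENA11a, 26.4 ± 0.70 FPKM in siMENA and 21.6 ± 0.34 FPKM in control libraries (SD, n = 3). VHL fell by 0.56 with siMENA11a against control (SE 0.06, limma adjusted p = 0.000318). EGLN2, the third prolyl hydroxylase, fell by 0.33 with siMENA11a (SE 0.07). CITED2, which competes with HIF for the coactivator p300, averaged 94.0 ± 3.93 FPKM in siMENA and 66.1 ± 4.53 FPKM in control libraries (log2 0.50, SE 0.08).

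Glucose and lactate transport and glycogen genes had 3 higher and 2 lower with siMENA11a, 3 higher and 4 lower with siMENA, and 7 higher and 3 lower in siMENA11a than in siMENA, of 16 tested. That is 31.25%, 43.75% and 62.5% passing, beside 19.5%, 18.6% and 36.6% of all genes. SLC2A3 (GLUT3), a high-affinity glucose transporter, fell by 0.97 with siMENA (SE 0.20), and GBE1, the glycogen branching enzyme, averaged 39.0 ± 2.14 FPKM in siMENA11a, 19.2 ± 1.31 FPKM in siMENA and 28.9 ± 2.17 FPKM in control libraries (SD, n = 3). PYGL, the liver glycogen phosphorylase, rose by a log2 difference of 0.64 with siMENA11a (SE 0.11). In the pentose phosphate and hexosamine branches, 2 of 13 were higher and 2 lower with each siRNA against control, and 5 higher and 2 lower in siMENA11a than in siMENA. Passing there were 30.77%, 30.77% and 53.85%, beside the same shares of all genes. PGD, an oxidative pentose phosphate dehydrogenase, averaged 79.6 ± 6.32 FPKM in siMENA11a, 49.0 ± 1.63 FPKM in siMENA and 51.2 ± 3.11 FPKM in control libraries (SD, n = 3). The pyruvate dehydrogenase list of 12 had 1 higher and 3 lower with siMENA11a, 2 higher and 1 lower with siMENA, and 3 higher and 5 lower in siMENA11a than in siMENA. Its shares passing were 33.33%, 25% and 66.67%. BRP44L (MPC1), a subunit of the mitochondrial pyruvate carrier, averaged 11.9 ± 0.28 FPKM in siMENA11a, 21.8 ± 0.97 FPKM in siMENA and 15.9 ± 2.78 FPKM in control libraries (SD, n = 3). Of 9 other glycolytic isoenzymes and regulators, 1 was higher and 3 lower with siMENA11a, 1 higher and 3 lower with siMENA, and 3 higher and 2 lower in siMENA11a than in siMENA. These are 44.44%, 44.44% and 55.56% of a list of only 9 genes. FBP1, which runs the phosphofructokinase step in reverse, averaged 1.72 ± 0.20 FPKM in siMENA11a, 0.641 ± 0.117 FPKM in siMENA and 1.05 ± 0.04 FPKM in control libraries (SD, n = 3).

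**Figure D4:**
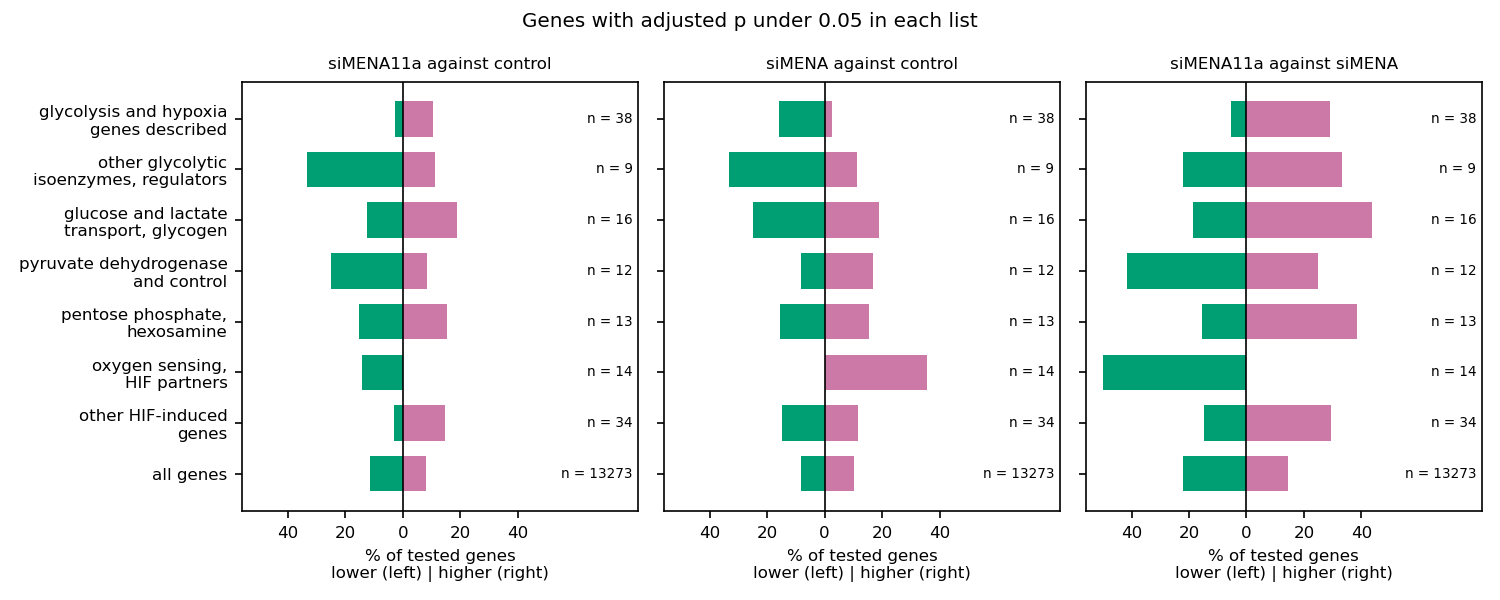
Share of tested genes called higher (right) and lower (left) by limma at adjusted p under 0.05, in percent, for the genes described here, for the 6 further lists and for all genes, in each comparison. For siMENA11a against siMENA the other oxygen-sensing genes lie wholly on the lower side, at 7 of 14, beside 22.2% lower and 14.4% higher of all genes.

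HIF binds the core motif ACGTG or GCGTG, and promoters of these genes were searched for both on both strands, from 250 bases before to 50 bases after each start listed by RefSeq (GRCh38.p14). RefSeq promoters were matched for 37 of the 40 genes, with 65 starts; VEGFA, BNIP3L and NDRG1 were not searched. ACGTG lay in 38.5% of these promoters and in 21.4% of all 35116 promoters. ACGTG or GCGTG lay in 67.7% and 48.4%. The promoters compared with were not limited to genes expressed here or matched for base content, so these shares are descriptions only. The 200 bases before the start are given for 4 genes on which the results turn and for PGK1, which passed in no comparison, with each motif in capitals (overlapping matches run together, and CACGT and CACGC are the motifs read on the other strand). LDHA holds 5 matches, all to ACGTG on either strand, ERO1L 2, KDM3A 1 (a GCGTG), PGK1 1 and PGAM1 none.
PGAM1, chr10:97427618-97427817, plus strand: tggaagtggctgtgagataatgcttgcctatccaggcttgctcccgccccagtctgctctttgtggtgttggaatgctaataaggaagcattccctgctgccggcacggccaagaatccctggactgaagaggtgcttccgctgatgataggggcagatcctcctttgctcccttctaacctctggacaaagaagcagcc
ERO1L, chr14:52695559-52695758, minus strand: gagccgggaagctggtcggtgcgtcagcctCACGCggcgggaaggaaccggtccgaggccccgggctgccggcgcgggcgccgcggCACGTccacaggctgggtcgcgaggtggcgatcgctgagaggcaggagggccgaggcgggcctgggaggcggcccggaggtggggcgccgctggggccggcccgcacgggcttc
KDM3A, chr2:86441171-86441370, plus strand: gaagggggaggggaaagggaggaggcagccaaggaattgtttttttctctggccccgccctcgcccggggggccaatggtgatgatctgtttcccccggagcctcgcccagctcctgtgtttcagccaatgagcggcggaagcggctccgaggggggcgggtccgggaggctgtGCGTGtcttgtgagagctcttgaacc
LDHA, chr11:18394363-18394562, plus strand: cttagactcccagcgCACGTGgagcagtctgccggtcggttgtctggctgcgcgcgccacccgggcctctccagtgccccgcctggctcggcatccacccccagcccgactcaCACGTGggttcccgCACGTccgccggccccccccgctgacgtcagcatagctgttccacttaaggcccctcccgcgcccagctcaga
PGK1, chrX:78104048-78104247, plus strand: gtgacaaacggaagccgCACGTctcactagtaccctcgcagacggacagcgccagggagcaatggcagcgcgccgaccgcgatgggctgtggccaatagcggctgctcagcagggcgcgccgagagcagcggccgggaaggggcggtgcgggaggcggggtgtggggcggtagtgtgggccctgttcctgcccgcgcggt

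Over its whole window of 300 bases PGK1 holds 4 matches, 3 of them to ACGTG. PGAM1 holds neither motif in its window. EGLN3, ARNT and P4HA2 also lacked both motifs in theirs. Sites outside these windows were not searched, and whether HIF plays a part in the differences was not tested.

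Short words in 3′ UTRs were looked up because siRNAs can lower unintended transcripts that match bases near their start. The 7-base words CAGAATA and AGAATAA had been picked in earlier work on this same comparison, so their share among genes that fell with siMENA is built in: 54.5% of genes called lower, beside 28.5% of all 12179 genes searched (GENCODE v29, GRCh38). They lay in 8 of the 38 tested genes described here: ARNT, PFKFB3, HK1, PGAM1, BNIP3, ERO1L, PDK1 and BNIP3L. Of the 6 genes that fell with siMENA, PGAM1, BNIP3L and ERO1L hold a word, and VEGFA, SLC2A1 and HK2 hold none in any transcript searched. The words picked in the same way for siMENA11a, CCAAGGA and CAAGGAA, lay in 7 of the 38 genes (18.4%) and not in BNIP3, which fell with siMENA11a. Of all genes searched 25.7% hold such a word, and of genes called lower with siMENA11a 38.3%, a share built in likewise. Of the 4 genes described here that rose with siMENA11a, ERO1L holds one. Whether these words play a part in the differences was not tested. A word of PGAM1 and of ERO1L is shown in capitals with 10 bases on either side.
PGAM1, chr10:97432709-97432735, plus strand: acaatctagtCAGAATAgcagttctag
ERO1L, chr14:52642468-52642494, minus strand: tgtaagccttAGAATAAataatacttt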

How the data were processed

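The authors deposited 1 table of FPKM values for the 9 libraries, and human build hg19 is named in the submitters' processing notes. Which aligner, quantifier and gene models were used is not stated in the labels or in the table. Without counts the absolute depth stays unknown, and the number of libraries limits precision. Part of the values had lost their decimal point: 11524 of 11543 whole numbers (7.91% of all values) stood far above the other values of their gene, or in genes without decimals, and were divided by 1000. This touched 100 of the 360 values of the 40 genes described here, in 26 genes. Genes with missing values (1286) were left out.

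The genes averaging 0.5 FPKM or more were compared as log2(FPKM + 1) with limma 3.58.1 in R 4.3.3, with 1 fit over the 9 libraries, group as the only term, a variance trend and 6 residual degrees of freedom. Adjustment was by Benjamini-Hochberg over 13273 genes, and adjusted p under 0.05 passed. The fit was tested on simulated data. Groups were taken from the labels. PKM is listed as PKM2 and was matched under that name.

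The genes, lists and motifs were chosen with earlier results of these data known. Values in every library are given for genes that passed in at least 1 comparison with a mean of at least 1 FPKM (the 8 with the largest change per comparison), and for HIF1A, EPAS1, ARNT, HK2, GAPDH, LDHA, PGK1, SLC2A1, CA9 and VEGFA. From each further list at most the 3 passing genes with the largest change per comparison are named. The labels give the 3 groups the same replicate numbers. Deviations from the group mean correlated between same-numbered siMENA and control libraries at 0.124, 0.378 and 0.196, which counts as pairing by the rule used (each over 0.1), so a fit with the replicate number as a block was added. Alternatives covered the pseudocount, the filter, scaling, the repair, missing values, the block, the libraries in the fit, the variance trend and leaving out each library.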

Additional observations from a re-analysis of the deposited data

How the results depend on the processing

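Of 25 passing results (a gene in a comparison), 17 passed under all of the 19 alternatives that could be run for them and 8 were lost under at least 1; none changed direction. The 8 are named beside their values above, except that PFKP and ENO1 also lost their call with only the 6 libraries compared, BNIP3 likewise, HK2 and PFKP without the variance trend, PFKP under the block, and BNIP3 and PFKP with repaired values taken as missing. With repaired values taken as missing, 26 of the 40 genes could be tested. PGAM1, LDHA, SLC16A3 and NDRG1, with 7, 7, 8 and 5 of their 9 values repaired, could not, so their calls rest on restored values. For siMENA11a against control 3 passed, where 5 had passed: BNIP3 was lost and NDRG1 was not tested. For siMENA11a against siMENA 8 passed, where 13 had passed: PFKP was lost, and PGAM1, LDHA, SLC16A3 and NDRG1 were not tested. With the replicate block, 9 of the 38 tested genes described here passed for siMENA against control, where PDK1 and NDRG1 were gained and no other call changed. For siMENA11a against control 10 passed with it, 6 higher and 4 lower, where 5 had passed, 4 higher and 1 lower. Gained there were EPAS1 (adjusted p = 0.0163) and BNIP3L (0.0312), both higher, and PDK1 (0.0111), SLC2A1 (0.0336) and PFKFB4 (0.0375), all lower. For siMENA11a against siMENA 14 passed with it, PFKFB3 (0.0418) and P4HA2 (0.0301) gained and PFKP lost. Numbers of siMENA11a libraries did not meet the pairing rule (same-numbered correlations with control 0.206, 0.425 and -0.0302, with siMENA 0.0863, 0.309 and 0.0203). That rule asks it of every number, and replicate 2 alone did correlate between all 3 groups (0.378 for siMENA with control). With libraries of other numbers in the other groups, replicate 2 correlated at -0.4249 to -0.06641. Deviations shared by replicate 2 therefore stay in the main fit, which has no block. Leaving out each library gave 3 to 6, 5 to 10 and 9 to 14 passing genes for siMENA11a against control, siMENA against control and siMENA11a against siMENA, and the 3 arose whenever a control replicate was left out. Over all genes the same counts ran 1493 to 2483, 1346 to 2902 and 3626 to 4814.

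Reversals fell on differences near 0 that did not pass. PGAM1 for siMENA11a against control became 0.0365 under quantile normalization and ran from -0.08645 to 0.0155 when a library was left out. For siMENA11a against siMENA, GAPDH became 0.001129 under median-ratio scaling, and PGK1 0.03645 under it and 0.02784 under quantile normalization. Leaving out a library moved GAPDH from -0.129 to 0.01192 (siMENA11a against control), -0.08087 to 0.02157 (siMENA against control) and -0.1002 to 0.02763 (siMENA11a against siMENA). It gave HIF1A for siMENA against control -0.09979 to 0.01785. For siMENA11a against control it gave CA9 -0.2319 to 0.1898, VEGFA -0.04325 to 0.1046, and ARNT -0.05671 to 0.09518. For siMENA11a against siMENA it gave PGK1 -0.06407 to 0.02985 and EPAS1 -0.02122 to 0.1639. A further 18 results that had not passed did so under at least 1 alternative. The cause was not tested.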
